A study of Mus musculus with 3 samples.

Results

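Crosslinks of the splicing factor Tra2β were counted in 8 genes that encode proteins of the sperm tail: Fsip1, Fsip2, Akap3, Akap4, Ropn1l, Cabyr, Odf1 and Odf2. The genes were listed by name from knowledge of the fibrous sheath and outer dense fibres, with no measured value in the rule, and are 8 of the 21770 protein-coding genes of GENCODE vM39 with a canonical transcript. All members carried crosslinks in exons in every library. Fsip2, Akap3 and Akap4 have canonical coding exons of 1000 nt or more, and the other 5 genes do not.

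The data are 3 biological replicate iCLIP libraries (individual-nucleotide resolution UV crosslinking and immunoprecipitation) from testes of adult wild type mice. The labels give total testis, minced, with mixed cell types, and the methods of the study say that mincing released germ cells before the UV irradiation. Endogenous Tra2β was precipitated with a polyclonal anti-Tra2b antibody (Abcam, ab31353). There is 1 group, and no input, control antibody or RNA level was analysed here. A crosslink count therefore combines how much of an RNA was present with how much of it was bound, and in such a mixture fewer cells of a type and less RNA per cell cannot be told apart.

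The fibrous sheath surrounds the principal piece of the mammalian sperm tail, and the outer dense fibres run alongside the axoneme within the midpiece and principal piece. Most of their proteins are made late in spermatogenesis, in spermatids. AKAP4 and AKAP3, the main structural proteins of the sheath, anchor protein kinase A. Tra2β is an SR-like protein that binds AGAA and other GAA-containing RNA and activates splicing of exons that hold them.

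The libraries held 348033, 619571 and 488719 crosslinks in replicates 1, 2 and 3. Levels are given as CPM, crosslinks per 1e6 crosslinks of the library, and a count of 0 allows up to 8.62, 4.84 and 6.14 CPM (3 crosslinks) respectively. Replicate 2 stood apart from the other libraries. Over the 3672 genes with 20 or more exonic crosslinks, exonic CPM in replicate 2 had a median ratio of 0.433 to the mean of replicates 1 and 3. A list of 8 germ cell markers, all with crosslinks in every library, summed to 1598, 378 and 2071 exonic CPM, against 172, 50.03 and 141 for 5 Sertoli markers and 91.9, 33.9 and 83.9 for 5 Leydig markers. Blood markers summed to 2.87, 1.61 and 2.05 exonic CPM, with no crosslink in the globin genes Hbb-bs and Hbb-bt. The part of these markers, or of depth, in the results below was not tested.

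Exons of the tail genes were densely crosslinked relative to their introns. In an exact binomial test of exonic against intronic crosslinks, given the length of each, 5 of 8 members were called higher in exons in all 3 libraries (Fsip2, Akap3, Odf1, Odf2 and Cabyr), where 32.3% of 6907 genes tested were called. At a minimum of 50 crosslinks, which all 8 members met, 2012 of 3951 genes were called and the members called were still 5. The median log2 ratio of exonic to intronic density was 3.92 over the 8 members and 2.50 over all genes tested. Fsip1, Akap4 and Ropn1l were not called, and each of them missed the threshold in replicate 2 alone. Without replicate 2, when a call needed only 2 libraries, all 8 members were called, and so were 3292 of all 6907 genes tested. A call needed an adjusted p (Benjamini-Hochberg, over all genes of a library) under 0.05 in the same direction in every library, and such p-values treat crosslinks as independent although they cluster at sites.

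**Figure D1:**
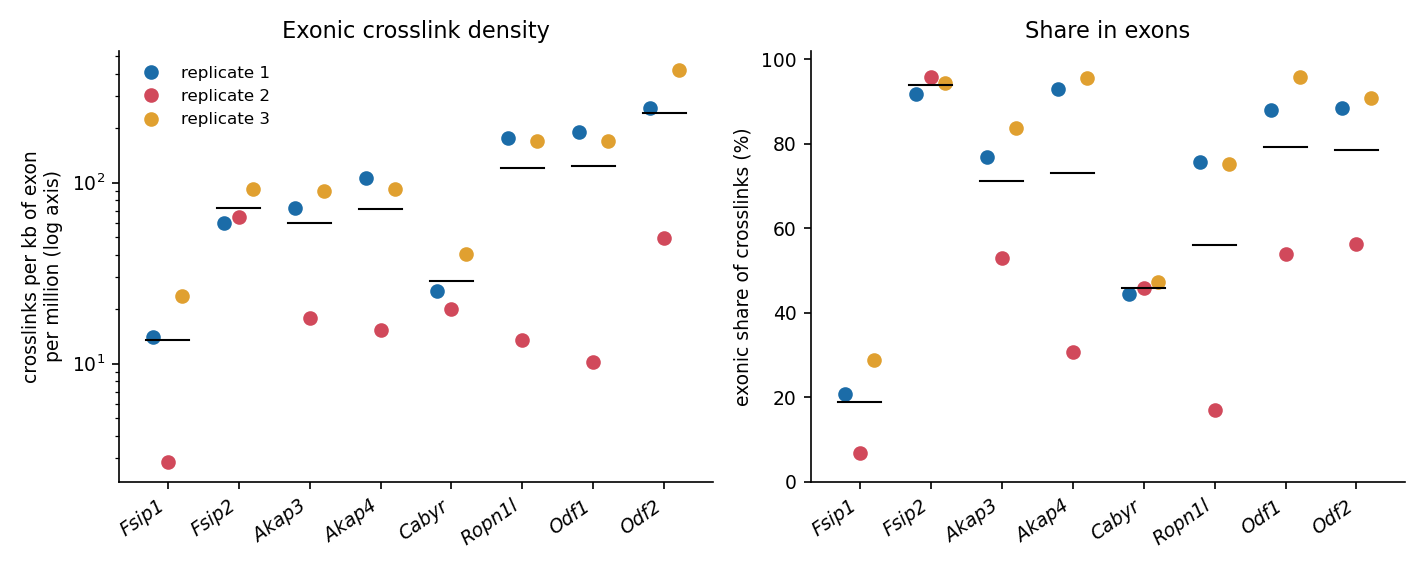
Crosslinks per kb of exon per 1e6 (left, log axis) and the exonic share of exonic plus intronic crosslinks in percent (right) for the 8 genes. Points are the 3 libraries and the horizontal line is their mean. Replicate 2 is the lowest point on the left for every gene but Fsip2, whose values run from 59.9 to 91.7.

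Fsip2 encodes fibrous sheath interacting protein 2, a very large protein of the sheath. Its gene (ENSMUSG00000075249) lies at chr2:82773978-82839281 on the + strand of GRCm39, and its canonical transcript has 23 exons with 21116 nt. Exons held 440, 848 and 946 crosslinks and introns 39, 38 and 56 in replicates 1, 2 and 3. The exonic share was 91.9%, 95.7% and 94.4%, although exons make up 32.3% of the gene length. Its exonic level of 59.9, 64.8 and 91.7 CPM per kb was 72.1 ± 17.1 (SD, n = 3), with no drop in replicate 2. The log2 density ratio of exons to introns was 5.07 ± 0.49 (SD, n = 3), higher than in 97.3% of genes tested.

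Fsip2 has 58.3% of the exonic length of the 8 genes. It took 40.6%, 80.8% and 44.5% of the exonic crosslinks of all 8 members in replicates 1, 2 and 3. Together the 8 genes held 0.368%, 0.223% and 0.493% of each library.

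The bulk of the Fsip2 coding sequence is in 2 neighbouring exons. Exon 16 (chr2:82805183-82814126, 8944 nt) held 161, 416 and 352 crosslinks, and exon 17 (chr2:82814713-82824371, 9659 nt) held 200, 383 and 419. Both are coding over their full length. Crosslinks were spread along these exons. Cut into 89 bins of about 100 nt, exon 16 had a median of 10 crosslinks per bin over the 3 libraries, a lowest of 2 and a highest of 29. Exon 17, in 97 bins, had the same median and lowest value and a highest bin of 25. No bin of either exon was empty over the 3 libraries.

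The highest bins were set mainly by replicate 2. In exon 16 the bin from nt 5801 to 5900 held 5, 20 and 4 crosslinks, and in exon 17 the bin from nt 3901 to 4000 held 5, 14 and 6. The exon 17 bin from nt 7001 to 7100 had the same sum of 25, with 4, 16 and 5 crosslinks. It holds 4 AGAA and is not printed. The bins from nt 5801 and nt 3901 read as follows on the sense strand, with AGAA in capitals. They are shown because no bin of their exon held more crosslinks:
Fsip2 exon 16, chr2:82810983-82811082, + strand: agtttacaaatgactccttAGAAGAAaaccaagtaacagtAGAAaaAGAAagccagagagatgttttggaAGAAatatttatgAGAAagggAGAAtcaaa
Fsip2 exon 17, chr2:82818613-82818712, + strand: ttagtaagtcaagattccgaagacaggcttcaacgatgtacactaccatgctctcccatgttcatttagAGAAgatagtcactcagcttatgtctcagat
The exon 16 bin holds 7 AGAA (overlapping matches counted) and is 70.0% purine. The printed exon 17 bin holds 1 AGAA and is 48.0% purine.

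**Figure D2:**
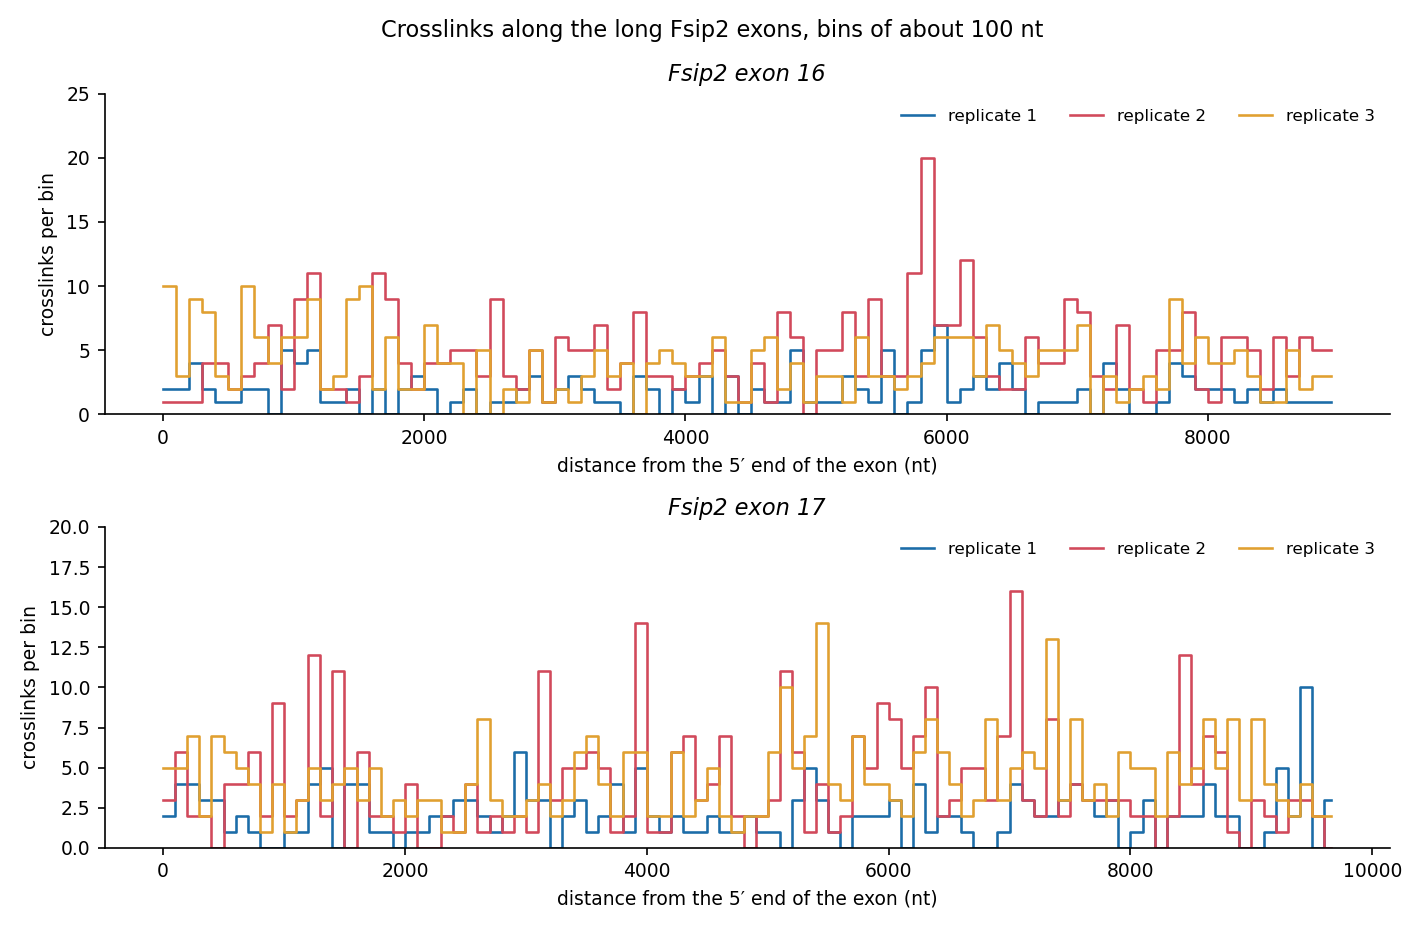
Crosslinks per bin of about 100 nt (y axis) along Fsip2 exons 16 and 17 against the distance from the 5′ end of the exon in nt (x axis), with a line for each library. Crosslinks cover both exons, and the tallest step in exon 16 is 20 crosslinks in replicate 2 between nt 5801 and 5900.

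At single-nucleotide resolution few positions of these exons were crosslinked in more than 1 library, but each library crosslinked few positions. They were 161, 397 and 333 in exon 16 and 195, 347 and 405 in exon 17. Crosslinks fell on 847 positions of exon 16 and 895 of exon 17, which is 9.47% and 9.27% of their nucleotides, and of these 44 and 52 positions were crosslinked in 2 libraries and 0 in all 3. The overlap that position density alone would give was not computed, so these counts do not say whether sites recur between libraries. The highest count at any position was 3 in exon 16 and 4 in exon 17. Bin counts of different libraries were weakly related: Pearson's r over the 89 bins of exon 16 was 0.23, 0.20 and -0.01 for replicates 1 with 2, 1 with 3 and 2 with 3. Over the 97 bins of exon 17 it was 0.05, 0.11 and 0.27, and the bins of an exon share their libraries and neighbours. Counting error limits these values, since the median bin held 10 crosslinks over all 3 libraries.

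Within exon 17, nt 6108 to 6529 form an internal repeat, in which a stretch matches its neighbour 108 nt away at 86.0% identity. This stretch, 4.37% of the exon, held 7, 24 and 23 crosslinks, or 3.50%, 6.27% and 5.49% of those in the exon. No exon of any member had a copy of 50 nt or more at 90% identity or above elsewhere in the genome, Fsip2l included.

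Despite their size, exons 16 and 17 were not consistently denser or sparser than the rest of the transcript. Exon 17 had a log2 density ratio to the other Fsip2 exons of -0.05 ± 0.04 (SD, n = 3). For exon 16 the ratios were -0.35, 0.39 and -0.31, with adjusted p of 0.446, 0.00678 and 0.0399 (exact binomial test, over 58715 exons), so the direction in replicate 2 was opposite to that in replicates 1 and 3. Together the 2 long exons have 88.1% of the exonic length and held 82.0%, 94.2% and 81.5% of exonic crosslinks. The exact (Clopper-Pearson) 95% bounds were 78.1 and 85.5 for replicate 1, 92.4 and 95.7 for replicate 2, and 78.9 and 83.9 for replicate 3. In replicate 2 the interval lay above the share of length and in the other libraries below it.

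The density per kb showed which exons moved. The long exons had 55.8, 69.3 and 84.8 CPM per kb in replicates 1, 2 and 3, whereas the 21 shorter Fsip2 exons had 90.3, 31.5 and 142. Among the short exons, exon 7 (chr2:82781988-82782098, 111 nt) was densest, with 13, 7 and 27 crosslinks and 6 AGAA. Its log2 ratio to the other exons was 2.58, 0.75 and 2.50. The adjusted p was 3.44e-04 and 1.47e-09 in replicates 1 and 3 and 1.00 in replicate 2 (exact binomial test), so exon 7 passed the threshold in replicates 1 and 3 only.

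**Figure D3:**
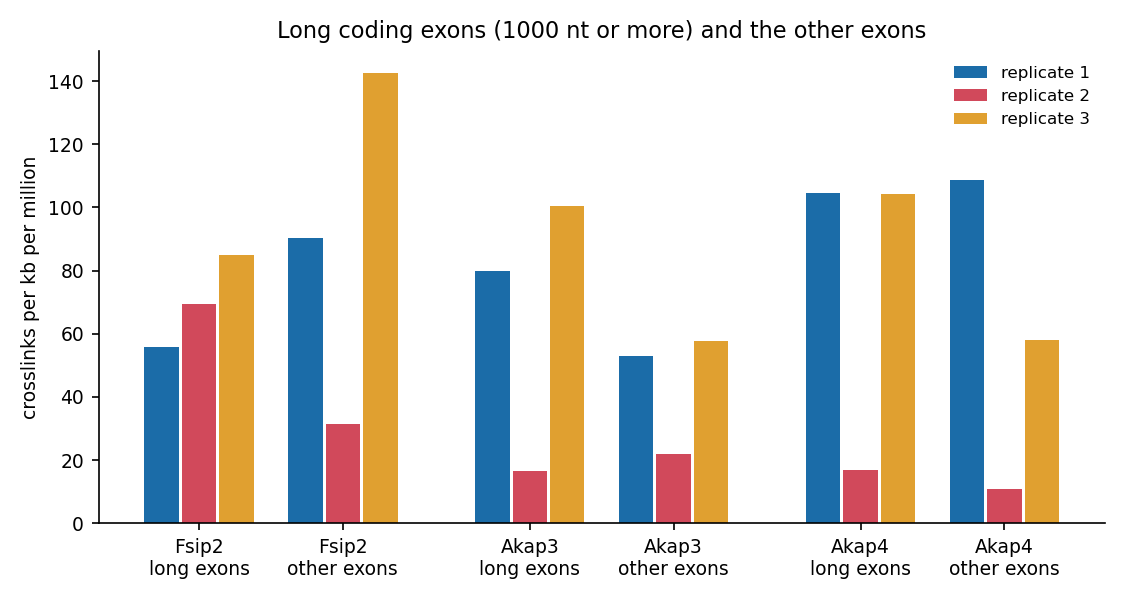
Crosslinks per kb per 1e6 in the long coding exons and in all other exons of Fsip2, Akap3 and Akap4, with a bar for each library. Replicate 2 is the lowest bar in every set except the long Fsip2 exons, where it stands at 69.3 between 55.8 and 84.8.

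Akap3 and Akap4 each have a long coding exon, exon 5, which holds most of the coding sequence. In Akap3 (ENSMUSG00000030344, chr6:126830055-126851271, + strand), exon 5 is 2343 nt at chr6:126841479-126843821 and held 65, 24 and 115 crosslinks. In Akap4 (ENSMUSG00000050089, chrX:6933758-6944850, + strand), exon 5 is 2118 nt at chrX:6941948-6944065 and held 77, 22 and 108. Replicate 2 had the fewest crosslinks in both exons although it was the largest library.

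Akap3 exons together had 80, 35 and 138 crosslinks and introns 24, 31 and 27. Its exonic level was 72.8, 17.9 and 89.4 CPM per kb, and the exonic share was 76.9%, 53.0% and 83.6%, lowest in replicate 2. The log2 density ratio of exons to introns was 3.92 ± 1.11 (SD, n = 3) and the gene was called, its highest adjusted p by the exact binomial test being 1.58e-11, in replicate 2.

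Akap4 exons had 105, 27 and 129 crosslinks and introns 8, 61 and 6. The exonic share was therefore 92.9% and 95.6% in replicates 1 and 3 but 30.7% in replicate 2 (95% Clopper-Pearson interval 21.3 to 41.4). The exonic level was 106, 15.2 and 92.4 CPM per kb. Log2 density ratios of exons to introns were 5.03, 0.24 and 5.72, and in replicate 2 the adjusted p was 0.746 (exact binomial test). Most of the intronic excess lay near the 5′ end of the gene: introns 1 and 2 (4697 nt) held 6, 58 and 4 crosslinks. In intron 1 the 45 crosslinks of replicate 2 fell on 35 positions, against 4 crosslinks in each of the other libraries. Introns 1 and 2 are 71.9% and 71.1% purine and hold 23.6 and 16.8 AGAA per kb. Exon 5 is 55.1% purine and holds 9.44 AGAA per kb. The part of sequence in the excess was not tested.

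Along the Akap3 and Akap4 exons the profiles of replicates 1 and 3 had peaks in common. In Akap3 exon 5 the bin from nt 301 to 400 was the highest, with 8, 2 and 19 crosslinks. In Akap4 exon 5 it was nt 1201 to 1300, with 10, 5 and 12. The medians over bins were 7 and 10 crosslinks. These bins are shown because they were high in replicates 1 and 3 alike, with AGAA in capitals:
Akap3 exon 5, chr6:126841779-126841878, + strand: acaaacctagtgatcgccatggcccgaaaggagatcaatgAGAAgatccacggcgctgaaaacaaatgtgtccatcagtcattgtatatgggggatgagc
Akap4 exon 5, chrX:6943148-6943247, + strand: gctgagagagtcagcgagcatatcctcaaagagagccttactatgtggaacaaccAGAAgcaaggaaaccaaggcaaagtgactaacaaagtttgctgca
Each of them holds 1 AGAA and 3 GAA. Pearson's r between replicates 1 and 3 was 0.61 over 23 bins of Akap3 and 0.66 over 21 bins of Akap4. Spearman's rho was lower, at 0.41 and 0.55, and neither measure was computed without the printed bins. With replicate 2 Pearson's r was 0.11 and 0.13 in Akap3 (24 crosslinks in replicate 2), for replicates 1 and 3 in turn. In Akap4 (22 crosslinks) it was 0.45 and 0.53. As in Fsip2, 0 positions were crosslinked in all 3 libraries, and the overlap that position density alone would give was not computed.

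**Figure D4:**
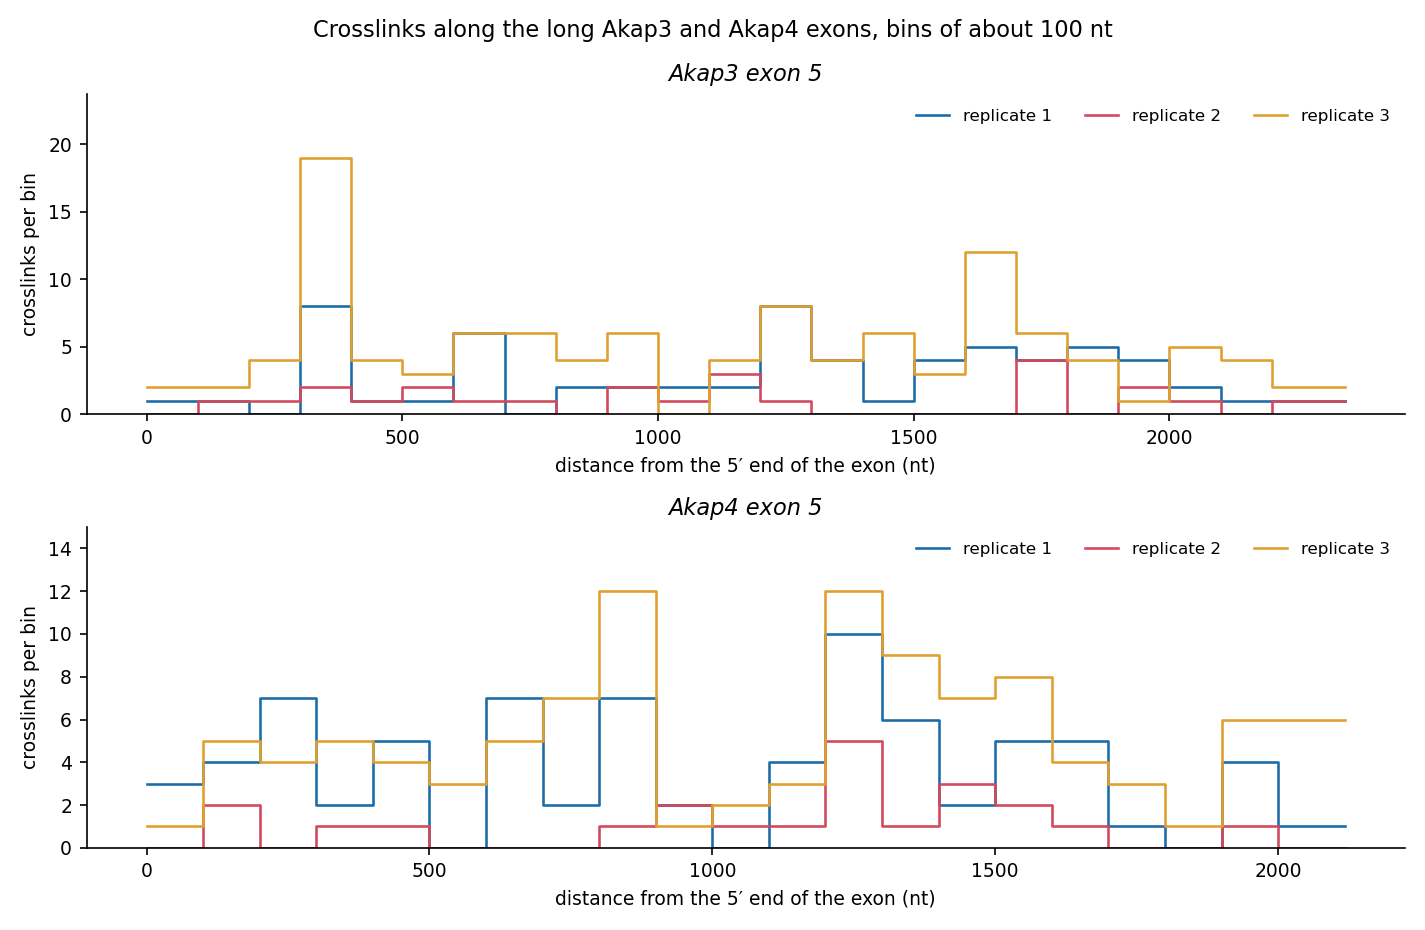
Crosslinks per bin of about 100 nt (y axis) along exon 5 of Akap3 and exon 5 of Akap4 against the distance from the 5′ end of the exon in nt (x axis), with a line for each library. Replicates 1 and 3 both rise between nt 301 and 400 in Akap3 (8 and 19) and between nt 1201 and 1300 in Akap4 (10 and 12).

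Exon 5 of Akap3 had a log2 density ratio of 0.30 ± 0.64 to its other exons, and exon 5 of Akap4 0.42 ± 0.45 (SD, n = 3). Exon 5 of Akap3 is 74.2% of the exonic length and took 81.3%, 68.6% and 83.3% of exonic crosslinks. For Akap4 exon 5 the share of length was 74.1% and the share of crosslinks 73.3%, 81.5% and 83.7%. No library gave an adjusted p under 0.05 for either exon (the lowest were 0.226 and 0.211, in replicate 3, exact binomial test).

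None of the 77 member exons was called denser than the rest of its transcript in all 3 libraries, where 0.164% of all exons were, and 1 was called sparser, where 0.305% were. The sparser exon was Odf2 exon 1. The median log2 ratio was 0.14 over the member exons and 1.09 over all exons tested. The latter depended on the minimum count: it was 2.25 at 1 crosslink and 0.675 at 50. The exons behind these medians were not matched for crosslink count. Across the 77 exons, Spearman's rho between exon length and crosslinks per kb was -0.04, -0.25 and -0.05 in replicates 1, 2 and 3. With AGAA per kb it was 0.27, 0.30 and 0.25 and with the purine share 0.32, 0.54 and 0.32, a description over exons that share genes and libraries. All 77 exons had a crosslink in some library and 53 in all of them, whereas of 69 introns 65 had a crosslink in some library and 41 in all.

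**Figure D5:**
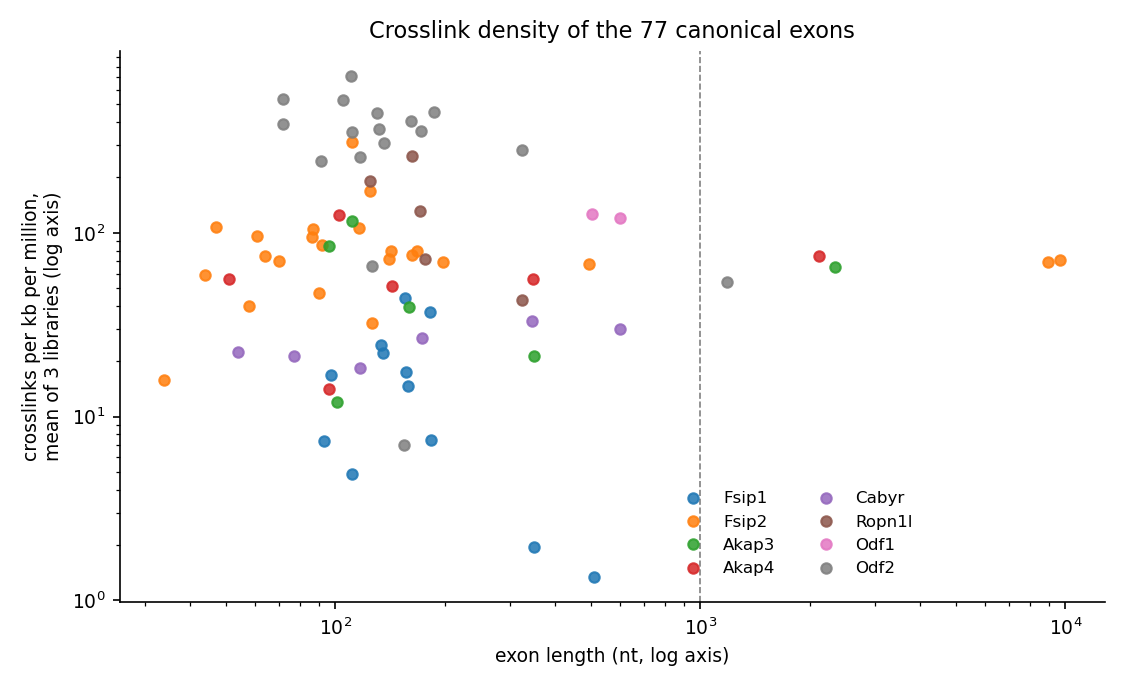
Mean over 3 libraries of crosslinks per kb per 1e6 (y axis, log) against exon length in nt (x axis, log) for the 77 canonical exons, with a colour for each gene and a dashed line at 1000 nt. The 4 long coding exons lie between most Odf2 exons and the sparse Fsip1 exons, at similar heights.

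The position within the long exons was compared on either side of the midpoint. No member exon was called, where 1.03% of the 1264 exons of 1000 nt or more were called higher on the 5′ side and 0.158% lower. Those 1264 exons include non-coding stretches, and their median log2 ratio was 0.72. With coding bases only, 535 exons were tested, 1 was called higher and 1 lower, and the median was -0.04. Fsip2 exon 16 had 77, 184 and 185 crosslinks on the 5′ side and 84, 232 and 167 on the 3′ side. Fsip2 exon 17 had 99, 180 and 176 against 101, 203 and 243, with an adjusted p of 0.00585 in replicate 3 and 1.00 and 0.718 in replicates 1 and 2 (exact binomial test). The mean log2 ratio of the 5′ to the 3′ side was -0.03 ± 0.52 in Akap3 and -0.43 ± 0.56 in Akap4 (SD, n = 3).

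The Tra2β motif was more frequent in the long coding exons of the members than in most long coding exons. AGAA occurred 13.1 and 12.7 times per kb in Fsip2 exons 16 and 17, more than in 83.3% and 82.1% of 3122 exons with 1000 or more coding nt, whose median was 7.92. In exon 5 of Akap3 and of Akap4 it occurred 9.39 and 9.44 times per kb, more than in 64.0% and 64.6% of such exons. The spliced transcripts of the short-exon genes held between 9.76 (Odf2) and 16.7 (Ropn1l) per kb, with no reference over all transcripts computed. Crosslinks within 15 nt of an AGAA were counted against the length so covered. No member exon was called, where 0.158% of 1263 long exons were called higher. In Fsip2 exon 16 the log2 ratio near AGAA was 0.12, 0.43 and -0.06, with an adjusted p of 0.0911 in replicate 2 (exact binomial test). In exon 17 it was -0.14, 0.32 and -0.15. For Akap3 and Akap4 the means were -0.09 ± 0.13 and -0.06 ± 0.70 (SD, n = 3).

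Between the bins of Fsip2 exon 16, Pearson's r of AGAA count with crosslinks was 0.28, 0.51 and 0.17 in replicates 1, 2 and 3, and Spearman's rho was 0.15, 0.32 and 0.22. The value of replicate 2 rested in part on the bin printed above: without it Pearson's r was 0.19, 0.33 and 0.20, an alternative chosen after seeing the data. In exon 17 Pearson's r was -0.04, 0.34 and -0.03 and Spearman's rho -0.06, 0.26 and -0.07. The difference between libraries was not tested.

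Among the short-exon genes, Odf2 had the highest density of the group. It encodes a major outer dense fibre protein that is also found at the centrosome, and lies at chr2:29778780-29822068 on the + strand (ENSMUSG00000026790). Its exons held 304, 104 and 689 crosslinks and its introns 40, 81 and 69. The exonic level was 258, 49.6 and 417 CPM per kb, again lowest in replicate 2, and ranked 20 of 3672 genes by its mean. The exonic share was 88.4%, 56.2% and 90.9% in exons that make up 10.3% of the transcribed length. The log2 density ratio was 5.31 ± 1.60 (SD, n = 3) and the gene was called. Counting exons of all transcripts lowered the mean ratio to 3.56, and the gene was still called.

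Odf2 crosslinks were uneven between its 17 exons. The non-coding exon 1 (chr2:29779832-29781014, 1183 nt) had 33, 6 and 43 crosslinks, while exons 2 to 17 together had 271, 98 and 646. Its log2 density ratio was -2.72 ± 0.51 (SD, n = 3), and by the exact binomial test its highest adjusted p was 2.03e-09. The partly coding exon 3 (154 nt) held 0, 2 and 0 crosslinks and exon 4 (126 nt) 2, 3 and 7, but neither was called. In the exact binomial test replicate 2 missed an adjusted p of 0.05 for both exons. For exon 4 replicate 1 missed it too (0.0956). Exon 2 (91 nt, non-coding) held 8, 2 and 20, with a log2 ratio of 0.01 ± 0.17 (SD, n = 3) to the other exons, which include the sparse exon 1. Per kb, exon 2 had 87.9, 22.0 and 220 crosslinks. Exons 5 to 17 together had 143, 49.8 and 339, a grouping with no test.

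Odf2 exon 13 (110 nt, chr2:29805220-29805329) was its densest exon in replicates 1 and 3, with 25, 4 and 77 crosslinks and no AGAA, whereas in replicate 2 exon 10 (72 nt; 15, 9 and 28 crosslinks) was denser. Ropn1l exon 3 (162 nt, chr15:31449110-31449271), by contrast, held 23, 2 and 28 crosslinks and 4 AGAA. The 41-nt windows below are those within coding exons that took the largest share of all exonic crosslinks of Odf2, Ropn1l and Odf1, libraries weighted equally, and are shown to set these short exons beside the long ones, with AGAA in capitals:
Odf2 exon 13, chr2:29805223-29805263, + strand: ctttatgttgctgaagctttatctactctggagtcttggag
Ropn1l exon 3, chr15:31449217-31449257, - strand: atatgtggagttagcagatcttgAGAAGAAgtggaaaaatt
Odf1 exon 2, chr15:38226770-38226810, + strand: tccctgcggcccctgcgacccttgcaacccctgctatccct
The Odf2 window held 17, 3 and 54 crosslinks, the Ropn1l window 12, 1 and 18 and the Odf1 window 5, 2 and 6. Purines make up 41.5%, 68.3% and 26.8% of the 3 windows. The choice of the Odf1 window rests on replicate 2, where 2 of 7 crosslinks are 28.6% of the gene, against 6.85% and 6.52% in replicates 1 and 3 and 3.71% of its exonic length.

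Over the whole spliced transcript of Odf2, 44.4%, 53.8% and 39.3% of exonic crosslinks lay within 15 nt of an AGAA, where 29.7% of the transcript is that close. The difference was smaller without exon 1, which is sparse in AGAA and in crosslinks. In that alternative, chosen after seeing the data, the shares were 49.1%, 56.1% and 42.0% where 44.1% of the length is that close, so replicate 3 lay below the share of length. For Fsip2 the share was 41.8%, 44.8% and 39.4% against 38.1%, and for Ropn1l 50.8%, 37.5% and 55.7% against 40.0%. These are shares with no test, and the Ropn1l value of replicate 2 rests on 3 of 8 crosslinks.

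Odf1 encodes a cysteine-rich outer dense fibre protein related to small heat shock proteins, and Ropn1l a protein that docks on AKAPs. Odf1 (ENSMUSG00000061923, chr15:38219447-38226979, + strand) has 2 exons, which held 73, 7 and 92 crosslinks, and an intron with 10, 6 and 4. Its log2 density ratio was 4.999 ± 2.10 (SD, n = 3) and it was called, its highest adjusted p by the exact binomial test being 0.00652, in replicate 2. Ropn1l (ENSMUSG00000022236, chr15:31441355-31453883, - strand) had 59, 8 and 79 exonic and 19, 39 and 26 intronic crosslinks. Its exonic share was 75.6%, 17.02% and 75.2%, and in replicate 2 the adjusted p was 0.0971 (exact binomial test). A processed pseudogene, Gm6361, lies within intron 3 of Ropn1l on the same strand, and leaving out shared bases did not change the call.

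Cabyr and Fsip1 had the lowest exonic densities. Cabyr, which encodes a calcium-binding protein of the sheath (ENSMUSG00000024430, chr18:12873379-12888317, + strand), had 12, 17 and 27 exonic and 15, 20 and 30 intronic crosslinks. Its exonic share of 44.4%, 45.9% and 47.4% varied little, and the log2 density ratio of 2.96 ± 0.08 (SD, n = 3) was called. Fsip1 (ENSMUSG00000027344, chr2:117960744-118087463, - strand), which encodes a sheath-interacting protein, had 11, 4 and 26 exonic and 42, 54 and 64 intronic crosslinks. Its intron 10 of 85701 nt held 22, 29 and 35 of the latter. The log2 density ratio of Fsip1 was 3.53 ± 1.20 (SD, n = 3), with an adjusted p of 0.0809 in replicate 2 (exact binomial test).

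By mean exonic CPM per kb the order was Odf2 (242 ± 184), Odf1 (123 ± 98.6), Ropn1l (120 ± 92.2), Fsip2 (72.1 ± 17.1), Akap4 (71.1 ± 48.8), Akap3 (60.0 ± 37.4), Cabyr (28.5 ± 10.6) and Fsip1 (13.4 ± 10.3; SD, n = 3). The ranges of all neighbours in this order overlapped over the 3 libraries. The median over all 3672 genes was 8.33 CPM per kb, and the members ranked between 20 and 1157.

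Replicate 2 separated the genes. Its exonic CPM, divided by the mean of replicates 1 and 3 after adding 0.5 to each count, was 0.855 for Fsip2 and 0.613 for Cabyr. For the other members the ratio was lower: 0.223 for Akap3, 0.166 for Fsip1, 0.156 for Akap4, 0.148 for Odf2, 0.0822 for Ropn1l and 0.0605 for Odf1. Against the median of 0.433 for all genes, Fsip2 and Cabyr lay above and the other 6 below, and 81.6% and 67.0% of genes had a lower ratio than Fsip2 and Cabyr. The median was 0.507 for 734 genes with 1000 or more coding nt in an exon and 0.417 for the other 2938. Akap3 and Akap4, which have such an exon, were below both medians. Fsip2 was not uniform. Its 21 shorter exons fell to 31.5 CPM per kb in replicate 2, against 90.3 and 142 in replicates 1 and 3. Its 2 long exons had 69.3, against 55.8 and 84.8.

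The genes whose exonic CPM per kb over the 3 libraries lay nearest to that of each long-exon gene, by Euclidean distance on the log2(CPM per kb + 1) scale, were not genes with equally long exons. For Fsip2 they were Garin5b, Gm45861 and 1700109H08Rik, at distances of 0.45, 0.52 and 0.67, and their longest coding exons have 1348, 340 and 156 nt. For Akap3 they were Cage1, Cep128 and Eif5b (0.16, 0.19 and 0.39). For Akap4 they were Cfap210, Ddx4 and mt-Nd1 (0.16, 0.47 and 0.55).

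A list of 17 other sperm tail genes was counted in the same way. Of these, 10 had enough crosslinks and introns to be tested, 3 were called higher in exons (Spa17, Gapdhs and Oaz3) and 0 lower, where 32.3% of all genes tested were called higher. The median log2 ratio was 3.27, beside 2.50 over all genes tested. Spa17, which encodes a sperm protein with a docking domain like that of Ropn1l, had 291, 15 and 530 exonic crosslinks, most of them in replicates 1 and 3. Fscb, a fibrous sheath gene with a single exon, had 71, 0 and 165, and in replicate 2 the count of 0 allows up to 4.84 CPM.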

How the data were processed

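Each deposited file lists, for 1 library, crosslinked nucleotides with a strand and a whole-number count of unique cDNAs (column 5). Per the study's methods the authors ran the iMAPS pipeline, and the submitters' processing notes name Trim Galore 0.6.7, Bowtie 1.3.1, STAR 2.7.9a, UMI-tools 1.1.2 and mm39 (GRCm39). The treatment of multi-mapping reads is not given in the sources used here. Counts were assigned on the gene strand to exons and introns of the Ensembl_canonical transcript (GENCODE vM39). Intervals and floors cover counting error only. Tests were two-sided exact binomial tests (doubling the smaller tail) within each library against the share of length, adjusted by Benjamini-Hochberg over all features with 20 or more crosslinks, and a feature was called where each of the 3 libraries gave the same direction and an adjusted p under 0.05. A pseudocount of 0.5 was added to each count in log2 ratios. The p-values measure counting within 3 libraries. Long exons have 1000 nt or more, and near AGAA means within 15 nt on the sense strand. The named genes are the 8 members, the 3 nearest genes by level for each of Fsip2, Akap3 and Akap4, and the listed tail and marker genes. Members and lists were chosen with earlier results of these data known. Simulated data were used to check part of the code only. How often the tests miss a true difference where crosslinks cluster at sites was not tested. A feature that was not called may therefore still differ in density. Copies were searched with BLAST 2.17.0, and other work used Python 3.11.15, numpy 2.4.6, scipy 1.17.1, pandas 2.3.3, pysam 0.24.0 and matplotlib 3.10.9. Alternatives tried were counting positions once, other minimums, other exon definitions, other motifs and leaving out each library.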

Additional observations from a re-analysis of the deposited data

Results flagged for a closer look

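Crosslinks on the strand opposite to the 8 genes were outside every comparison and are given because they exceeded 3 counts, the limit that a count of 0 allows. They summed to 8 in replicate 1, 21 in replicate 2 and 6 in replicate 3. Of these genes, Akap3, Odf2, Ropn1l and Cabyr overlap an annotated gene on the opposite strand.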

How the results depend on the processing

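The count of members called higher in exons than in introns was 5 of 8 under every alternative tried but 1. These were positions counted once, minimums of 1 and 50 crosslinks, exons of all transcripts, and bases shared with another gene left out. Leaving out each library gave 5 to 8, and the 8 came without replicate 2, when Fsip1 (log2 4.20), Akap4 (5.37) and Ropn1l (5.19) were called as well and a call needed 2 libraries. Over all genes, 2234 of 6907 were called in the main setting, 3292 of 6907 without replicate 2 and 2012 of 3951 at a minimum of 50. None of the 4 long coding exons was called in the comparisons with other exons, across the midpoint or near AGAA under any alternative, and Odf2 exon 1 stayed sparser wherever it was tested. It has no coding bases and so gave no value with coding bases only. Over all features, calls ranged more widely with the alternatives: exons denser than others from 13 (coding bases only) to 278 (without replicate 2) where 96 were called, sparser exons from 0 to 347 where 179 were, long exons higher on the 5′ side from 1 to 118 where 13 were and lower from 1 to 12 where 2 were, and long exons higher near AGAA from 1 to 14 where 2 were, the largest of these without replicate 2. The Odf2 share near AGAA minus the share of length moved from 14.7, 24.2 and 9.64 percentage points to 4.95, 12.0 and -2.18 without exon 1 of that gene. No paired analysis was possible because the series has 1 group. Counts of 4 to 8 exonic crosslinks in replicate 2 limit what can be said of Fsip1, Odf1 and Ropn1l there.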
